A study of Mus musculus with 54 samples.

Results

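The genes described here are 38 interferon-stimulated genes, chosen by name, and all 38 were found once each among the 54356 genes of the heart and liver tables. RNA was sequenced from whole hearts and whole livers of male C57BL/6 mice, 20 weeks old, that had eaten a high-fat diet (HFD) with 42% of its energy from fat, 35% from carbohydrate and 23% from protein. The groups were 3 wild-type mice (Mrps12+/+), 3 mice homozygous for an error-prone mutation (Mrps12ep/ep) and 3 homozygous for a hyper-accurate mutation (Mrps12ha/ha) in each tissue. MRPS12 is a protein of the decoding site of the mitochondrial ribosome, the 2 mutations are carried in the germline, and all mice of every group ate the HFD, so that no group here was fed chow. Wild types were litter-mate matched, but the labels do not say which mice shared a litter.

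The values are the authors' normalized counts, 1 column per mouse and tissue, in which 3 technical libraries were taken as pooled. A heart held 11202961 to 51484404 reads on genes and a liver 21238036 to 81518584, and a single read was worth as much as 3.02 normalized counts in the least deeply sequenced heart, that of Mrps12ha/ha mouse 2. The labelled tissues matched their markers, with a sum of 6 cardiomyocyte genes of 1920980 to 3369370 in hearts and of 6 hepatocyte genes of 4583780 to 6269820 in livers. Some livers stood apart. Skeletal muscle markers summed to 17474 and 21415 in the livers of Mrps12+/+ mice 1 and 2 against 28.9 to 213 in the other livers, cardiomyocyte markers to 7439 in the liver of Mrps12ha/ha mouse 3 against 41.4 to 444, and acute phase genes to 1480120 in the liver of Mrps12+/+ mouse 3 against 152092 to 210448. Mrps12 itself had 1028 to 1397 normalized counts in hearts and 1508 to 1914 in livers, and since both alleles are point mutations its level does not check the genotype labels.

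Interferons are secreted proteins that warn cells of infection. Type I interferons bind a receptor of the chains IFNAR1 and IFNAR2, whose signal leads through STAT2 and IRF9 to the interferon-stimulated response element (ISRE) in front of antiviral genes. Interferon gamma acts through its own receptor and gamma-activated sites (GAS) and is best known for inducing guanylate-binding proteins and immunity-related GTPases. Cytosolic RNA and DNA sensors start the same programme from within the cell, and mitochondria are part of it, because the adaptor MAVS sits on their outer membrane and because mitochondrial nucleic acids that leak into the cytosol can be sensed. In heart and liver these genes are expressed by parenchymal, endothelial and immune cells alike. In samples of whole organs, fewer cells of a type and less RNA per cell cannot be told apart.

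The members were searched for these elements in the RefSeq promoter windows of build GRCm38.p6, which run from 250 bases before to 50 bases after each start. A window was given for 28 of the 38 members. The ISRE core was searched as GAAANNGAAA and the GAS core as TTCNNNGAA, on both strands, with 1 match of the former overlapping a match of the latter. At least 1 ISRE core stood in the windows of 17 of the 28 members, 60.7%, against 3.99% of the 27025 gene symbols with a window. The 17 were Bst2, Cxcl10, Ddx58, Gbp2, Gbp3, Ifih1, Ifit1, Ifit3, Ifit3b, Igtp, Irgm1, Irgm2, Isg15, Oas1a, Oas3, Rsad2 and Stat2. The GAS core stood in 6 of the 28, 21.4%, against 9.55% of all symbols. These were Bst2, Ifi35, Ifit2, Igtp, Irgm2 and Oas1a. A match is a run of letters and not a measured binding site.

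The windows below surround the match nearest the start in members that the comparisons turn on, with every ISRE core, on either strand, in capitals, and each is written from 5′ to 3′ on the gene's own strand.
Gbp2: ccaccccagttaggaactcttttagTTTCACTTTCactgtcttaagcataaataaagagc
Gbp3: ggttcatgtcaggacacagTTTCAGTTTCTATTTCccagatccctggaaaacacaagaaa
Ifit1: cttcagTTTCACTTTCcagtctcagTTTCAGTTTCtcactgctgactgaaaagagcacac
Isg15: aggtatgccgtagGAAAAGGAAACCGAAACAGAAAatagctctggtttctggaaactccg
Rsad2: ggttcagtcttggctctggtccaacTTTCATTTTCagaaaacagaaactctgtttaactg
Ifit3: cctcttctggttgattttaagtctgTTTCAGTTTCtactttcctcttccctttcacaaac
Ifit3b: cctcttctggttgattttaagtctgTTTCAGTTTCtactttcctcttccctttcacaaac
Igtp: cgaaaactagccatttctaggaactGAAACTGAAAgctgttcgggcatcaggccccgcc
Irgm2: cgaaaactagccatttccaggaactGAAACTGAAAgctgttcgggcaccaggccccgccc
The windows lie at chr3:142620579-142620638 (plus strand) for Gbp2, chr3:142559980-142560039 (plus) for Gbp3, chr19:34640779-34640838 (plus) for Ifit1, chr4:156200850-156200909 (minus) for Isg15 and chr12:26456538-26456597 (minus) for Rsad2. Those of the 4 paralogs lie at chr19:34583382-34583441 for Ifit3, chr19:34607778-34607837 for Ifit3b, chr11:58199497-58199555 for Igtp and chr11:58214888-58214947 for Irgm2, all on the plus strand. Gbp3 and Isg15 carry runs of overlapping cores, 2 in Gbp3 and 3 in Isg15, and Ifit1 carries 2 separate ones. The Ifit3 and Ifit3b windows were identical over 60 of 60 bases, and those of Igtp and Irgm2 over 57 of 59. The transcripts of these pairs are alike too. Of the stretches of 31 bases in Ifit3 transcripts, 61.8% also occur in Ifit3b, of those in Oas1a 68.7% occur in Oas1g, and of those in Igtp 15.9% occur in Irgm2, with which it overlaps on the genome, so that the split of reads within these pairs is uncertain.

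All 38 members passed the filter on low values, a mean of 10 normalized counts across the mice of a tissue, in heart and liver alike, and were tested. Levels were set side by side between genes per 1000 exon bases. On this scale the lowest members in Mrps12+/+ hearts were Oas3, which makes the oligoadenylate signal for RNase L, at 2.36 ± 0.355, the chemokine gene Cxcl10 at 4.93 ± 2.57 and Mx1 at 9.45 ± 0.878 (SD, n = 3). The highest were Ifi27l2a, a small interferon-induced membrane protein, at 797 ± 190.1, Bst2, the tether that holds budding virus at the cell surface, at 522 ± 110.4 and Ifi35 at 355 ± 35.8. Mx1 encodes a dynamin-like antiviral GTPase of which most laboratory strains, C57BL/6 among them, carry a defective allele, and Mx2 is annotated as a polymorphic pseudogene. In Mrps12+/+ livers the lowest were Oas3 at 13.1 ± 7.34, Mx1 at 35.9 ± 18.7 and Ifi44 at 58.0 ± 30.7. The highest were Bst2 at 5532 ± 2007, the immunity-related GTPase Iigp1 at 3228 ± 1630 and Igtp at 1754 ± 1828 normalized counts per 1000 exon bases. The SD of Igtp exceeded its mean, since 1 liver carried most of its counts, and its place in this order is not separated from those of its neighbours.

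**Figure D1:**
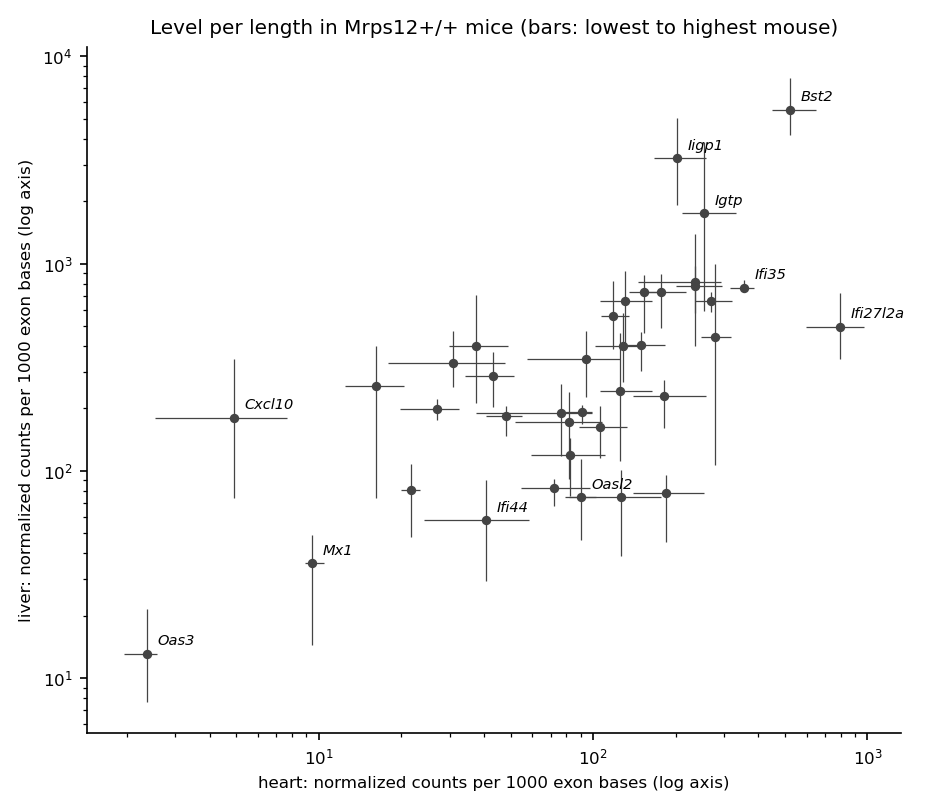
Level of each of the 38 members in Mrps12+/+ mice, as normalized counts per 1000 exon bases, in heart (x axis) and liver (y axis), both on log axes. Points are means of 3 mice and bars run from the lowest to the highest mouse. Oas3 and Mx1 sit at the low end and Bst2 near the top in both tissues, while Ifi27l2a is the highest member of the heart and Iigp1 and Igtp stand high in the liver with long bars.

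In unscaled normalized counts the members with the most reads in Mrps12+/+ hearts were Trim25, the ubiquitin ligase that acts on RIG-I, Iigp1 and Stat2. Trim25 had 1849, 1351 and 1434 normalized counts in Mrps12+/+ hearts of mice 1, 2 and 3, 1857, 1565 and 1812 in Mrps12ep/ep hearts and 2010.1, 1622 and 2524 in Mrps12ha/ha hearts. Iigp1 had 1500.1, 1057 and 969 in the first group, 2164, 1127 and 1730 in the second and 1434, 1278 and 1369 in the third. Stat2 had 1294, 943 and 918 in Mrps12+/+, 1342, 1226 and 1269 in Mrps12ep/ep and 1942, 985 and 1841 in Mrps12ha/ha hearts. The groups overlapped for each of these genes. Cxcl10 had the fewest, 17.2, 10.4 and 5.70 in Mrps12+/+, 32.7, 18 and 16.3 in Mrps12ep/ep and 16.6, 9.10 and 13.1 in Mrps12ha/ha hearts. Counts this low are a few reads in the shallow hearts.

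The members varied together between mice. Over the 9 hearts the median Pearson correlation of the 703 pairs of members was 0.62 and 642 pairs were positive, and over the 9 livers it was 0.66 with 656 positive. These mice share the genotype differences and the depth of their libraries, and the correlations are given as a description. Parp14, an ADP-ribosyltransferase, was the most typical member in both tissues, with a median correlation to the others of 0.80 in heart and 0.83 in liver. The least typical were Ifi27l2a in heart (-0.096) and Trim25 in liver (-0.21). The spread within a group was uneven. In Mrps12+/+ livers the median SD of the members was 0.56 on the log2 scale against 0.26 for all 15314 tested genes, while in Mrps12ha/ha livers it was 0.17 against 0.17. In hearts the members' median SD was 0.32 against 0.16 for all 16057 tested genes in Mrps12+/+ mice, 0.20 against 0.20 in Mrps12ep/ep and 0.27 against 0.31 in Mrps12ha/ha mice. The wild-type group was thus the one in which these genes differed most from mouse to mouse relative to other genes.

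**Figure D2:**
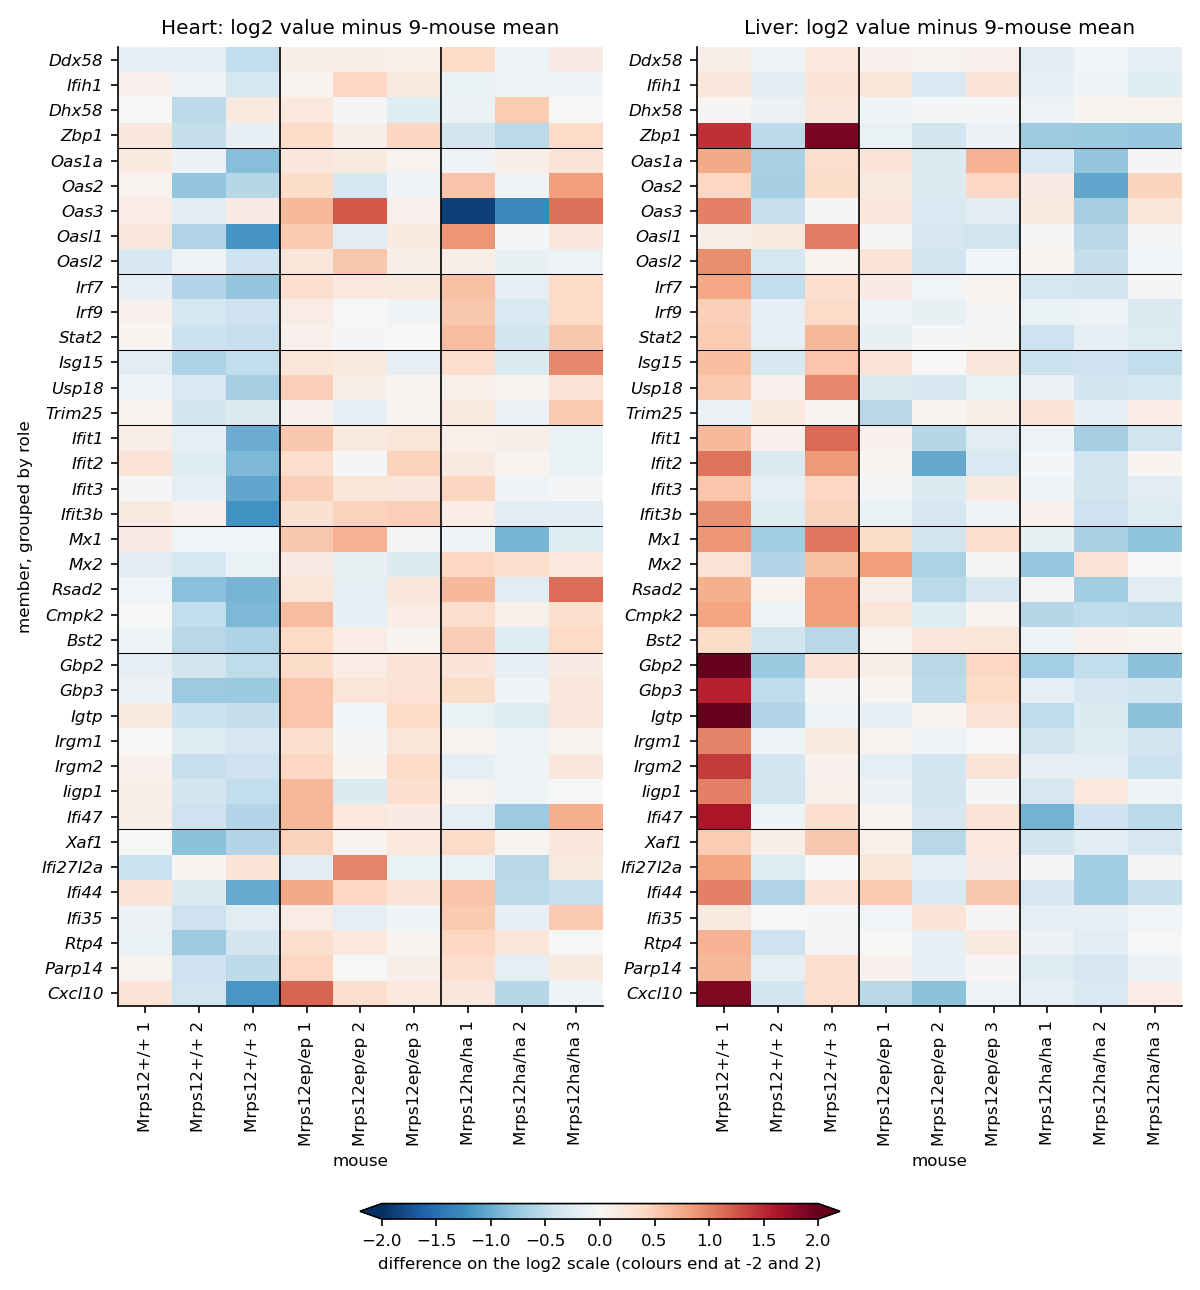
Each of the 38 members (rows, grouped by role) in each mouse (columns, by genotype), as the log2 of the normalized count plus 1 minus the mean of the 9 mice of the tissue. Red is above and blue below that mean. In the heart, Mrps12+/+ mice 2 and 3 are mostly blue and the Mrps12ep/ep mice mostly red, and in the liver Mrps12+/+ mouse 1 is red across most rows and deepest for Gbp2 and Igtp.

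The first comparison asked how the hearts of Mrps12ep/ep mice differed from those of Mrps12+/+ mice. All 38 members had a positive log2 fold change, although Ifi27l2a and Dhx58 were each negative under at least 1 alternative, and the values lay between 0.089 for Dhx58 and 0.998 for Cxcl10, with a median of 0.55 against -0.009 over all tested genes. Guanylate-binding proteins, Irf7, Oasl2, Xaf1 and Rtp4 had the smallest p-values. No member had an adjusted p under 0.05 from limma, as for 0% of all tested genes. An unadjusted p under 0.05 with a higher value was found for 17 members, 44.7%, against 1.05% of tested genes, and with a lower value for 0 against 0.635%. Every Mrps12ep/ep heart lay above every Mrps12+/+ heart for 15 members against 4.40% of tested genes, and below for 0 against 3.64%. With limma-voom on recovered reads, an alternative added after the data were seen, 23 members had an unadjusted p under 0.05, against 3.10% of tested genes in either direction, and again none an adjusted one. Array weights gave 29 members against 14.2%. Leaving out a mouse moved the count of 17 to 25 against 2.48% (Mrps12+/+ mouse 1), 11 against 1.26% (Mrps12+/+ mouse 2), 6 against 0.810% (Mrps12+/+ mouse 3), 7 against 3.24% (Mrps12ep/ep mouse 1) or 10 against 1.05% (Mrps12ep/ep mouse 3).

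Gbp3, a GTPase that helps to open the vacuoles of intracellular pathogens, had 536, 350.4 and 345 normalized counts in Mrps12+/+ hearts and 849.9, 685 and 710.2 in Mrps12ep/ep hearts. The groups did not overlap, and its log2 fold change was 0.89 with a standard error (SE) of 0.20 and an adjusted p = 1 from limma (0.0899 to 1 under other settings). Its relative Gbp2 had 798, 687 and 623 in Mrps12+/+ and 1147, 984 and 1077 in Mrps12ep/ep hearts. All 3 mutant hearts were above all 3 controls, with a log2 fold change of 0.61 (SE 0.15) and an adjusted p = 1 (0.0732 to 1 under other settings). Irf7, the transcription factor that amplifies type I interferon production, had 617, 459 and 401 in Mrps12+/+ hearts and 875, 797 and 783 in Mrps12ep/ep hearts, a log2 fold change of 0.75 (SE 0.22) with no overlap. Oasl2, a member of the oligoadenylate synthetase family, had 554, 656 and 519.5 in Mrps12+/+ and 813, 1004 and 760.1 in Mrps12ep/ep hearts, a log2 fold change of 0.57 (SE 0.15). Xaf1, a partner of the apoptosis inhibitor XIAP, had 456, 257 and 302 in Mrps12+/+ and 626, 477 and 524 in Mrps12ep/ep hearts, a log2 fold change of 0.71 (SE 0.21). For Rtp4, a chaperone of membrane receptors with antiviral activity, the counts were 329, 217 and 279 against 457, 418 and 375, a log2 fold change of 0.61 (SE 0.18). In each of these 6 genes the lowest mutant heart exceeded the highest control, for which an exact two-sided permutation test of 3 against 3 mice gives p = 0.1, the smallest it can give.

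**Figure D3:**
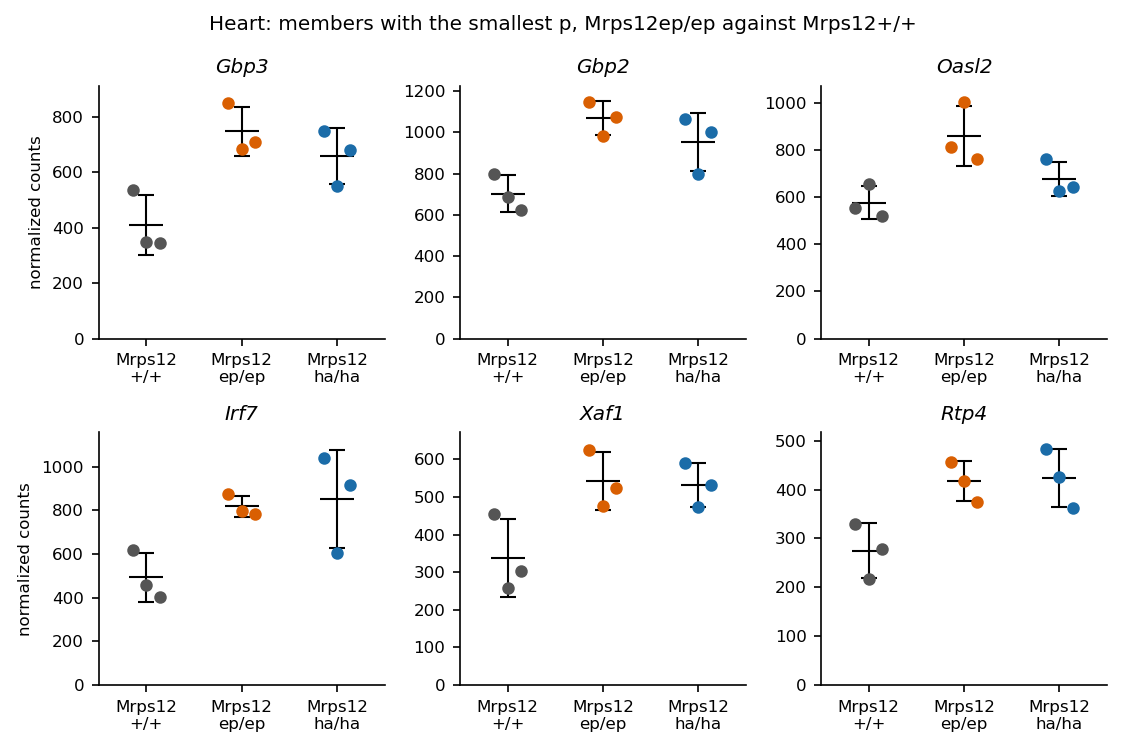
Normalized counts of Gbp3, Gbp2, Oasl2, Irf7, Xaf1 and Rtp4 in each heart, by genotype. Dots are mice, the horizontal line is the mean and the bar is 1 SD each way (n = 3). For every gene the 3 Mrps12ep/ep hearts lie above the 3 Mrps12+/+ hearts, and the Mrps12ha/ha hearts overlap the Mrps12ep/ep hearts.

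At an unadjusted p under 0.05, 1.05% of all tested genes were higher in Mrps12ep/ep hearts. By role, the members at this level, all higher, were 5 of the 7 guanylate-binding proteins and immunity-related GTPases and 4 of the 7 other interferon-induced genes. They also took in 2 of the 4 IFIT genes, whose proteins bind viral RNA, and 2 of the 5 MX, viperin and tetherin effectors. In each of the groups of 4 sensors, 5 oligoadenylate synthetase genes, 3 transcription factors and 3 genes of the ISG15 system there was 1. The near-identical genes Ifit3 and Ifit3b, between which the split of reads is uncertain, had like patterns. Ifit3 had 512, 460.3 and 255 in Mrps12+/+, 729, 619 and 611 in Mrps12ep/ep and 705, 501 and 512 in Mrps12ha/ha hearts. Ifit3b had 198, 186 and 74.8, then 216, 240.1 and 242, then 193, 151 and 149 in the same order. Both were lowest in Mrps12+/+ mouse 3.

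Hearts of Mrps12ha/ha mice were compared with the same Mrps12+/+ hearts, so that the 2 comparisons are not independent of each other. Here 34 members had a positive and 4 a negative log2 fold change, with a median of 0.40 against -0.024 over all tested genes. No member had an adjusted p under 0.05 from limma, against 0.0311% of tested genes. An unadjusted p under 0.05 with a higher value was found for 15 members, 39.5%, against 9.64% of tested genes, and with a lower value for 0 against 10.1%. Every Mrps12ha/ha heart lay above every control for 7 members against 11.1% of tested genes, so that this share, 18.4%, is nearer to that of other genes. The only member below in every heart was Mx1, against 10.0% of tested genes. Its highest Mrps12ha/ha heart had 33.1 normalized counts and its lowest control 33.7, a gap narrower than 1 read. Limma-voom called none and gave 16 members an unadjusted p under 0.05, against 24.1% of tested genes.

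The calls in these hearts changed when Mrps12ha/ha mouse 2, the shallowest heart, was left out. Without it 13 members had an adjusted p under 0.05, all higher, but so did 27% of all tested genes, and with array weights 18 members did against 34.7%. These 13 were Bst2, Ddx58, Gbp2, Gbp3, Ifi35, Irf7, Irf9, Isg15, Oas2, Rsad2, Stat2, Trim25 and Xaf1. The median log2 fold change was 0.55 without this mouse. At an unadjusted p under 0.05 array weights gave 23 members against 45.9% of tested genes. Leaving out other mice moved this count to 24 against 15.2% (Mrps12+/+ mouse 1), 8 against 11.8% or 11.2% (Mrps12+/+ mouse 2 or 3), 6 against 8.92% (Mrps12ha/ha mouse 1) or 9, of which 1 was lower, against 10.2% (Mrps12ha/ha mouse 3). In some heart muscle genes, Ryr2 and Myh6 among them, it was mice 1 and 3 of this group that stood apart, and not mouse 2. Ryr2, the calcium release channel of the cardiomyocyte, had 16285 and 19113 normalized counts in mice 1 and 3, 44622 in mouse 2 and 42377 to 56980 in the 6 hearts of the other groups. Myh6, the main adult myosin heavy chain, had 2130350 and 1846140 in mice 1 and 3, 1185570 in mouse 2 and 994852 to 1256400 in the 6 others. Actc1 was also apart in mice 1 and 3, at 238389 and 204154 against 250191 to 393928 in all others. Other heart muscle genes did not follow this split. All 3 mice of this group lay above the 6 others in Myl2 (352200 to 380504 against 162192 to 337052) and Tnni3 (200821 to 221120 against 137839 to 180771). Tnnt2 had 382720, 381317 and 332355 in mice 1, 2 and 3. The part of these in the values of the members was not tested.

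Irf7 had 1040, 604 and 914 normalized counts in Mrps12ha/ha hearts of mice 1, 2 and 3, beside the 617, 459 and 401 of the controls. Mouse 2 overlapped the controls, and the log2 fold change was 0.78 (SE 0.22) with an adjusted p = 0.198 from limma (0.00381 to 0.540 under other settings). Rsad2, which encodes viperin, an enzyme that makes a chain-terminating nucleotide, had 1115, 642 and 608 in Mrps12+/+ hearts, 1370, 1006 and 1349 in Mrps12ep/ep hearts and 1800.2, 985 and 2493 in Mrps12ha/ha hearts. Its log2 fold change in Mrps12ha/ha hearts was the largest of the members, 1.11 (SE 0.34) with an adjusted p = 0.209 (0.00352 to 0.540 under other settings), and mouse 2 was again within the range of the controls. Ddx58, which encodes the RNA sensor RIG-I, had 697, 680 and 555 in Mrps12+/+, 845, 858 and 833 in Mrps12ep/ep and 1029, 734 and 876 in Mrps12ha/ha hearts. No mutant heart of either kind overlapped the controls, and the log2 fold change was 0.44 in Mrps12ha/ha and 0.40 in Mrps12ep/ep hearts (SE 0.15 each). Gbp3 with 749, 549.7 and 681, Rtp4 with 482, 426 and 362 and Xaf1 with 591, 474 and 533 also lay above all controls in Mrps12ha/ha hearts. Their log2 fold changes were 0.70, 0.63 and 0.69, with SEs of 0.20, 0.18 and 0.21. At an unadjusted p under 0.05, 9.64% of all tested genes were higher in Mrps12ha/ha hearts. By role, the members at this level, all higher, were 4 of the 5 MX, viperin and tetherin effectors, 2 of the 3 genes of the ISG15 system and 3 of the 7 other interferon-induced genes. The rest were 2 of the 5 oligoadenylate synthetase genes, 1 of the 3 transcription factors, 2 of the 7 GTPases, 1 of the 4 sensors and 0 of the 4 IFIT genes.

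Set against each other, Mrps12ha/ha and Mrps12ep/ep hearts had a median log2 difference over the members of -0.12, with 15 higher and 23 lower in Mrps12ha/ha and -0.023 over all tested genes. No member had an adjusted p under 0.05 from limma, against 0.0249% of tested genes. With array weights the median was 0.048, and 7 members, all higher in Mrps12ha/ha, had an adjusted p under 0.05 against 39.3% of tested genes. Without Mrps12ha/ha mouse 2 there were 2, Ifi35 and Stat2, both higher, against 23.2%. An unadjusted p under 0.05 was found for 2 members with a lower value, Mx1 and Oasl2, against 8.86% of tested genes, and for 0 with a higher value against 9.07%. All mice of the groups were apart for 1 higher member, Mx2, against 8.77%, and for 4 lower ones, Ifih1, Ifit1, Ifit3b and Mx1, against 7.82%. At an unadjusted p under 0.05 array weights gave 8 members, all higher in Mrps12ha/ha, against 48.8% of tested genes in either direction. Without Mrps12ha/ha mouse 2 there were 7, again all higher, against 37.1%. Limma-voom gave 2, both lower, against 23.0%. Without Mrps12ha/ha mouse 3 there were 4, all lower, against 9.34%.

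Mx1 had 51.5, 57.4 and 34.5 normalized counts in Mrps12ep/ep hearts and 33.1, 18.1 and 29.7 in Mrps12ha/ha hearts, with 39.6, 33.7 and 34 in Mrps12+/+ hearts. The mutants did not overlap each other, with a log2 difference of -0.81 (SE 0.33) and an adjusted p = 0.265 (0.201 to 0.539 under other settings). The gap between them, from 34.5 to 33.1, was narrower than 1 read, which was worth 1.84 normalized counts in the heart of Mrps12ha/ha mouse 1. Mx2 went the other way, with 103, 82.9 and 76.3 in Mrps12ep/ep, 123, 118 and 107 in Mrps12ha/ha and 79.2, 71.8 and 84.3 in Mrps12+/+ hearts. Its log2 difference was 0.41 (SE 0.20) with an adjusted p = 0.297 (0.0488, with array weights, to 0.590 under other settings). Ifih1, which encodes the RNA sensor MDA5, had 443, 562 and 479 in Mrps12ep/ep, 385, 399 and 402 in Mrps12ha/ha and 451, 397 and 333 in Mrps12+/+ hearts. Its log2 difference was -0.32 (SE 0.15). Oasl2 had 760.2, 625 and 643 in Mrps12ha/ha hearts, overlapping both other groups, and a log2 difference of -0.34 (SE 0.15). Oas3 counts were scattered, with 25.8, 39.4 and 17.3 in Mrps12ep/ep, 3.70, 6 and 36 in Mrps12ha/ha and 18.1, 13.8 and 18.2 in Mrps12+/+ hearts. Ifi35, an interferon-induced leucine zipper protein, had 802, 634 and 688 in Mrps12ep/ep, 1044, 649 and 1049 in Mrps12ha/ha and 668, 546 and 624 in Mrps12+/+ hearts, and the 2 deeper Mrps12ha/ha hearts were the high ones.

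Markers of other cells were not level across the hearts. The sum of 5 endothelial markers, all expressed, was 26515 to 33764 in Mrps12+/+, 32308 to 37997 in Mrps12ep/ep and 31645 to 48408 in Mrps12ha/ha hearts. That of 10 macrophage markers was 6207 to 7337 in the first group, 6713 to 12894 in the second and 6119 to 8073 in the third. Pan-leukocyte markers, of which there were 3, summed to 1252 to 1402 in Mrps12+/+, 1332 to 2070 in Mrps12ep/ep and 1090 to 1928 in Mrps12ha/ha hearts. B cell markers, 4 genes, summed to 158 to 273 in Mrps12ha/ha hearts, above all Mrps12+/+ (42.8 to 119) and Mrps12ep/ep hearts (45.6 to 87.6). T cell markers, 6 genes of which 3 reached the mean needed for the test, summed to 97.1 to 124 in Mrps12ep/ep hearts, above all Mrps12+/+ hearts (41.5 to 91.7), and to 69.4 to 153 in Mrps12ha/ha hearts. The sum of 5 atrial markers ran from 8888 to 166517 in Mrps12+/+, from 2475 to 338400 in Mrps12ep/ep and from 5648 to 10946 in Mrps12ha/ha hearts, so that the share of atrium differed greatly between hearts. The part of these differences in the values of the members was not tested.

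The liver gave the opposite sign. Between Mrps12ha/ha and Mrps12+/+ livers 36 members had a negative and 2 a positive log2 fold change, the latter Bst2 and Trim25, with a median of -0.58 against -0.017 over all tested genes. The lowest p-values were those of Cmpk2, Usp18, Ifit1, Zbp1, Ifi47 and Rsad2. No member had an adjusted p under 0.05 from limma, against 0.00653% of tested genes. An unadjusted p under 0.05 with a lower value was found for 15 members, 39.5%, against 7.05% of tested genes, and with a higher value for 0 against 7.07%. Every Mrps12ha/ha liver lay below every control for 11 members, 28.9%, against 9.81%, and above for 0 against 10.0%. Limma-voom gave 16 members an unadjusted p under 0.05, against 15.9% of tested genes, and none an adjusted one. By role these lower members of the main test were 2 of the 4 IFIT genes, 2 of the 4 sensors, 2 of the 3 genes of the ISG15 system, 2 of the 3 transcription factors, 2 of the 5 effectors, 2 of the 7 GTPases, 2 of the 7 other genes and 1 of the 5 oligoadenylate synthetase genes.

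The controls set the size of this difference. Without Mrps12+/+ mouse 1 the median was -0.26 and with array weights -0.33. Without Mrps12+/+ mouse 2, the lowest of the 3, it was -0.85, and 5 members had an adjusted p under 0.05 against 0.588% of tested genes, namely Cmpk2, Isg15, Stat2, Usp18 and Zbp1, all lower. At an unadjusted p under 0.05 there were then 29 members against 17.1% of tested genes. Without Mrps12+/+ mouse 1 there were 12, of which 1 was higher, against 14.6%, and without Mrps12+/+ mouse 3 there were 10 against 11.8%. Array weights gave 10 against 13.3%, and a fit of only the 2 genotypes gave 11 against 12.3%.

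Cmpk2, a mitochondrial nucleotide kinase whose gene neighbours Rsad2 on chromosome 12, had 576, 315 and 597 normalized counts in Mrps12+/+ livers, 396, 283 and 348 in Mrps12ep/ep livers and 224, 235 and 233 in Mrps12ha/ha livers. The Mrps12ha/ha livers lay below all others, with a log2 fold change of -1.05 against the controls (SE 0.24) and an adjusted p = 0.134 from limma (0.0335 to 0.362 under other settings). Usp18, the protease that removes ISG15 and damps signalling at the interferon receptor, had 776, 568 and 1048 in Mrps12+/+, 445, 431 and 488 in Mrps12ep/ep and 495, 416 and 422 in Mrps12ha/ha livers. Neither mutant overlapped the controls, and the log2 fold change was -0.80 in Mrps12ha/ha (adjusted p = 0.152, 0.0483 to 0.405 under other settings) and -0.77 in Mrps12ep/ep livers (adjusted p = 0.384, 0.186 to 0.719), with an SE of 0.20 in both. Ifit1 had 893, 606 and 1256 in Mrps12+/+, 604, 382 and 488 in Mrps12ep/ep and 533, 360.4 and 430.4 in Mrps12ha/ha livers, again without overlap, although Mrps12ep/ep mouse 1 came close to Mrps12+/+ mouse 2. Its log2 fold changes were -1.01 in Mrps12ha/ha and -0.86 in Mrps12ep/ep livers (SE 0.27 each). Zbp1, the sensor of Z-form nucleic acids that can start necroptosis, had scattered controls, 1038, 260.4 and 1411, beside 341, 290.5 and 346 in Mrps12ep/ep and 228, 225 and 222 in Mrps12ha/ha livers. Mrps12+/+ mouse 2 was at the level of the mutants, and the log2 fold change in Mrps12ha/ha livers was -1.69 (SE 0.50) with an adjusted p = 0.208 (0.00517 to 0.468 under other settings). Rsad2 had 1086, 699.5 and 1192 in Mrps12+/+, 724, 459.7 and 533 in Mrps12ep/ep and 676, 412 and 569.8 in Mrps12ha/ha livers. Its log2 fold change was -0.84 in Mrps12ha/ha livers, which lay below all controls, and -0.78 in Mrps12ep/ep livers, which did not (SE 0.26 each).

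**Figure D4:**
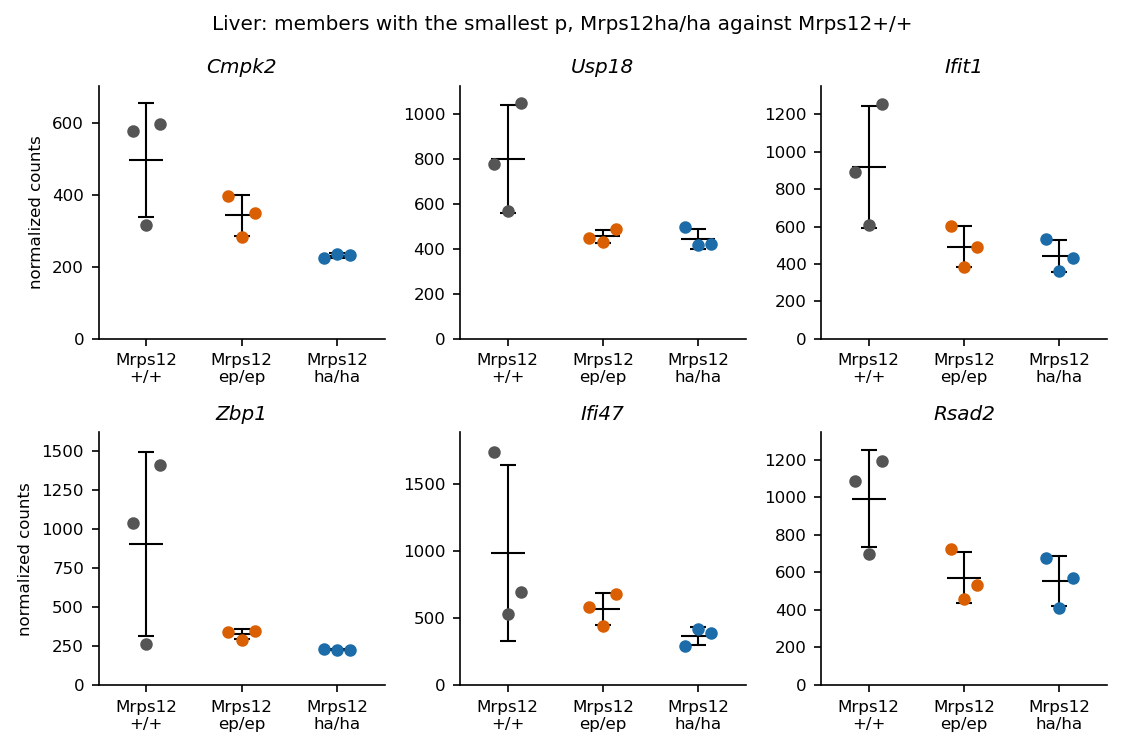
Normalized counts of Cmpk2, Usp18, Ifit1, Zbp1, Ifi47 and Rsad2 in each liver, by genotype. Dots are mice, the horizontal line is the mean and the bar is 1 SD each way (n = 3). The Mrps12ha/ha livers lie close together and below the Mrps12+/+ livers, which are spread widely, from 260.4 to 1411 for Zbp1.

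Livers of Mrps12ep/ep mice, compared with the same controls, had 32 members lower and 6 higher, with a median log2 fold change of -0.30 against -0.007 over all tested genes. No member had an adjusted p under 0.05 from limma, against 0.00653% of tested genes. An unadjusted p under 0.05 with a lower value was found for 7 members, 18.4%, against 5.12%, and with a higher value for 0 against 4.62%. Ifit1, Oasl1 and Usp18 were lower in every Mrps12ep/ep liver than in any control, 3 members against 6.28% of tested genes, and 0 were higher against 6.49%. Limma-voom gave 6 members an unadjusted p under 0.05, against 9.42% of tested genes, and none an adjusted one. Without Mrps12+/+ mouse 1 the median was -0.041, and without Mrps12+/+ mouse 2 it was -0.59 with 1 member, Zbp1, called against 0.00653% of tested genes, so that the size of the difference hung on which control was counted. Without Mrps12+/+ mouse 1 the count of 7 became 5, of which 1 was higher, against 16.2% of tested genes in either direction. In that setting 18 members were higher and 20 lower. The count became 22 against 11.2% without Mrps12+/+ mouse 2, 3 against 6.49% without Mrps12+/+ mouse 3 and 2 against 7.97% without Mrps12ep/ep mouse 2. It was 4 with array weights, of which 1 was higher, against 10.0%, and 4 with only the 2 genotypes in the fit, against 6.94%.

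Oasl1, which restrains the translation of Irf7, had 659, 693 and 1240 normalized counts in Mrps12+/+ livers, 618, 477 and 459 in Mrps12ep/ep livers and 588, 410.2 and 589.5 in Mrps12ha/ha livers. Both mutants were below the controls, with log2 fold changes of -0.69 in Mrps12ep/ep and -0.66 in Mrps12ha/ha livers (SE 0.26 each). Ifit2 had 397, 152 and 338 in Mrps12+/+, 194, 91.1 and 151 in Mrps12ep/ep and 183, 141 and 192 in Mrps12ha/ha livers, with overlap through Mrps12+/+ mouse 2. The chemokine gene Cxcl10, whose product draws T cells and natural killer cells, had 782, 166 and 274 in Mrps12+/+, 147, 121 and 199.7 in Mrps12ep/ep and 190.4, 173 and 238 in Mrps12ha/ha livers. Its log2 fold change in Mrps12ep/ep livers was -1.10 (SE 0.48) with an adjusted p = 0.505 (0.30 to 0.775 under other settings), and 1 control stood far above all other livers. Ifit3 had 1697, 1007 and 1545 in Mrps12+/+, 1138, 957 and 1309.5 in Mrps12ep/ep and 1090.1, 897 and 998 in Mrps12ha/ha livers, and Ifit3b had 526, 237 and 384, then 256, 221 and 266, then 298, 209 and 235. The order of the controls was the same in both genes, but their transcripts share sequence, so that the 2 patterns are not independent.

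Between the mutants, Mrps12ha/ha livers had 31 members lower and 7 higher than Mrps12ep/ep livers, with a median log2 difference of -0.22 against -0.002 over all tested genes. No member had an adjusted p under 0.05 from limma, against 0.00653% of tested genes. An unadjusted p under 0.05 was found for 3 lower members, Cmpk2, Ddx58 and Isg15, against 4.45%, and for 0 higher ones against 4.17%. Limma-voom gave 1 such member against 7.46%. The groups did not overlap for 10 lower members, 26.3%, against 9.01% of tested genes, and for 0 higher ones against 8.82%. The count of 3 became 11 with only the 2 genotypes in the fit, against 12.2% of tested genes, and 6 with array weights, against 15.8%. It became 0 without Mrps12ep/ep mouse 3, Mrps12ha/ha mouse 1 or Mrps12ha/ha mouse 3, against 7.03%, 6.03% and 5.24%. Without Mrps12ep/ep mouse 1 it was 1 against 5.70%, and without Mrps12ep/ep mouse 2 it was 5 against 8.76%. The log2 differences of this comparison do not use the scattered controls. Their SEs and p-values do, since the main fit took 1 spread from all 3 genotypes.

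Isg15, the ubiquitin-like modifier, had 535, 432 and 510.5 normalized counts in Mrps12ep/ep livers and 324, 326 and 309.8 in Mrps12ha/ha livers, with 666, 349 and 642 in Mrps12+/+ livers. The Mrps12ha/ha livers were below every other liver, with a log2 difference of -0.62 from Mrps12ep/ep (SE 0.23) and an adjusted p = 0.525 (0.151 to 0.912 under other settings). Ddx58 had 1358, 1342 and 1345 in Mrps12ep/ep, 1088, 1222 and 1107 in Mrps12ha/ha and 1403, 1185 and 1473 in Mrps12+/+ livers, a log2 difference between the mutants of -0.25 (SE 0.10). Ifi44 had 395, 222 and 397 in Mrps12ep/ep, 219, 169 and 201 in Mrps12ha/ha and 554, 180.3 and 332 in Mrps12+/+ livers. The mutants were apart by a narrow gap, with a log2 difference of -0.74 (SE 0.38). Ifi47, an immunity-related GTPase, had 582, 443 and 679 in Mrps12ep/ep, 288, 416 and 385 in Mrps12ha/ha and 1736, 527 and 694 in Mrps12+/+ livers. It was below all controls in Mrps12ha/ha livers, with a log2 fold change against them of -1.26 (SE 0.39) and an adjusted p = 0.214 (0.0916 to 0.439 under other settings). Ifi35 had 1223, 1542 and 1296 in Mrps12ep/ep, 1128, 1130.3 and 1219 in Mrps12ha/ha and 1438, 1271 and 1256 in Mrps12+/+ livers, a log2 difference between the mutants of -0.22 (SE 0.11).

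**Figure D5:**
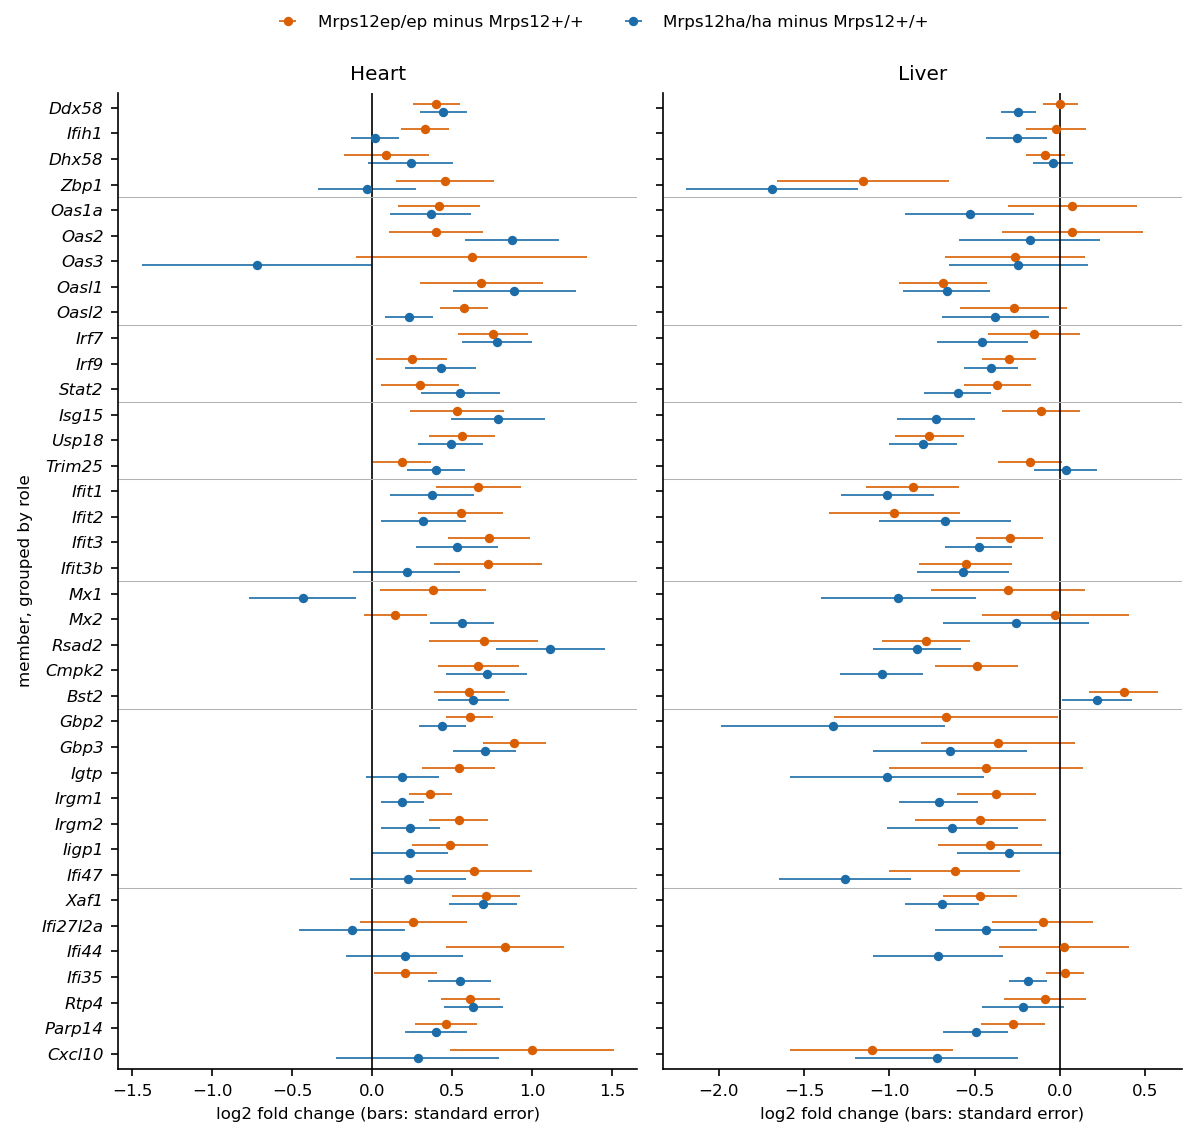
Log2 fold change of each of the 38 members in Mrps12ep/ep (orange) and Mrps12ha/ha mice (blue) against the same Mrps12+/+ mice, in heart (left) and liver (right). Bars are 1 SE from limma. Points lie mostly right of 0 in the heart and left of 0 in the liver, where the guanylate-binding proteins and immunity-related GTPases have long bars.

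The scatter of the control livers was not the same for every role. Genes chosen for their values in this respect were Gbp2 and Igtp. Gbp2 had 2498, 270.1 and 554 normalized counts in Mrps12+/+ livers, 500.2, 308 and 604 in Mrps12ep/ep and 283, 322 and 257 in Mrps12ha/ha livers, and Igtp had 7806, 1188 and 1647, then 1579.6, 1829 and 2146, then 1242, 1476 and 1006. Mouse 1 alone was high, and the other controls were at or near the levels of the mutants. Over the 7 genes of this role the median deviation from the mean of the 9 livers was 1.55 on the log2 scale in Mrps12+/+ mouse 1, -0.39 in mouse 2 and 0.10 in mouse 3. For the 4 IFIT genes it was 0.78, -0.22 and 0.65, and for the 5 MX, viperin and tetherin effectors 0.71, -0.40 and 0.84. Mouse 1 thus led in the GTPases, while mice 1 and 3 were both high in the IFIT and effector genes.

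The members with the most reads in Mrps12+/+ livers did not share 1 pattern. Iigp1 had 29429, 11178 and 15774 in Mrps12+/+, 13495, 11339 and 14504 in Mrps12ep/ep and 11693, 17027 and 13959 in Mrps12ha/ha livers. Stat2 had 4725, 2908 and 5303, then 3015, 3299 and 3409, then 2516, 2973 and 2800, and its high livers were Mrps12+/+ mice 1 and 3. Bst2 had 7075, 4158 and 3754 in Mrps12+/+, 5758, 6423 and 6474 in Mrps12ep/ep and 5217, 5844 and 5675 in Mrps12ha/ha livers, so that only mouse 1 of the controls was high. At the low end, Oas3 had 152, 54.2 and 72.6, then 87.8, 60.7 and 64.4, then 85.7, 47.1 and 88.4, and Mx1 had 166, 55 and 187, then 115, 69.4 and 113, then 80.9, 56.7 and 50.9. Ifi27l2a had 335, 161 and 192 in Mrps12+/+, 228, 171 and 215 in Mrps12ep/ep and 188, 119 and 187 in Mrps12ha/ha livers. The groups overlapped for each of these low genes.

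Other values set the same control livers apart. In Mrps12+/+ mouse 1 the 3 pan-leukocyte markers summed to 4056, against 1350.4 and 1767 in the other controls, 1614 to 2528 in Mrps12ep/ep and 1355 to 2153 in Mrps12ha/ha livers. Its 6 T cell markers summed to 452 against 73.4 to 329 in the other 8 livers, and its 10 macrophage and Kupffer cell markers to 35564 against 13912 to 30903. No marker of these lists was at 0 in all livers. In mouse 3, beside the acute phase genes, the 5 endothelial markers summed to 2164 against 4365 to 5648 in the others. The part of these in the values of the members was not tested. The skeletal muscle markers were high in mice 1 and 2. The members' median log2 deviation from the mean of all livers was 0.73, -0.28 and 0.32 in mice 1, 2 and 3. The part of the muscle markers in these values was not tested either.

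The wider pathway was described by a list of 76 genes outside the 38 members, of which 66 were tested in heart and 65 in liver, and none had an adjusted p under 0.05 from limma in any comparison. Of 10 interferon genes none reached the mean of 10 needed for the test. Ifng, the gene of interferon gamma, had 13.3 normalized counts in the liver of Mrps12+/+ mouse 1 and 0 to 4.40 in the other 8 livers, and at most 1.70 in hearts. Ifnb1 and Ifnk had at most 0.80 and 1.60 in any liver, and the 7 others were listed at 0 in every heart and liver. The receptors Ifnar1 and Ifnar2 were expressed in all mice, at 767 to 936 and 1031 to 1248 normalized counts in hearts and 1188 to 1679 and 2732 to 4174 in livers.

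Among 36 other interferon-induced antiviral genes the Mrps12ep/ep hearts had 36 higher and 0 lower, with 0.33 as the median log2 fold change and 5 higher at an unadjusted p under 0.05 against 1.05% of tested genes. The Mrps12ha/ha hearts had 32 higher and 4 lower, a median of 0.36 and 8 against 9.64%. In livers 29 were lower in Mrps12ep/ep, with a median of -0.22 and 5 lower at an unadjusted p under 0.05 against 5.12%, and 34 in Mrps12ha/ha, with a median of -0.32 and 8 against 7.05%. The lists of receptors with their kinases and of the sensing adaptors had medians between -0.13 and 0.21 in the comparisons with Mrps12+/+. Socs3, a feedback gene that also answers interleukin signals, had 335, 230.5 and 2115 normalized counts in Mrps12+/+ livers, and mouse 3 was the high one.

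The presence of an ISRE core was set beside the fold changes. In Mrps12ep/ep hearts the median log2 fold change was 0.61 for the 17 with a core and 0.64 for the 11 with a window but no core. In Mrps12ha/ha hearts the medians were 0.37 and 0.43, in Mrps12ep/ep livers -0.37 and -0.30 and in Mrps12ha/ha livers -0.63 and -0.66. The 10 members without a window had medians of 0.43, 0.32, -0.19 and -0.37 in the same order. In each of these comparisons with Mrps12+/+ the 2 medians of members with a window lay close together. For Mrps12ha/ha minus Mrps12ep/ep they were -0.19 with a core and 0.025 without in hearts, and -0.23 and -0.22 in livers.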

How the data were processed

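Per the labels, 54 libraries were made, 3 technical libraries for each mouse and tissue, and the deposited tables hold 1 pooled column for each. The authors trimmed reads with Trim Galore 0.4.1 and cutadapt 1.18, checked them with FastQC 0.11.8, quantified transcripts with Salmon 1.1.0 on GENCODE vM21 (GRCm38.p6) and normalized the gene counts with DESeq2 in each tissue without mitochondrial transcripts. The deposited values are these normalized counts to 1 decimal, so that no count model was fitted here. Tables of the authors' own comparisons hold fold changes and p-values and were not used.

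Columns were joined to mice through the column names and sample labels. All low values in each column were whole multiples of 1 step within 0.1 read, which gave the reads used for depth and for limma-voom. In R 4.3.3, limma 3.58.1 (lmFit, eBayes with an intensity trend) was fitted on log2(normalized count + 1), which understates the fold changes of low genes, for all 3 genotypes of a tissue together. The test took in genes whose mean over the 9 mice reached 10, 16057 in heart and 15314 in liver, with Benjamini-Hochberg adjustment across all of them and a threshold of 0.05. The named single genes were also compared by an exact two-sided permutation test, which cannot go below 0.1 with 3 against 3. The script was checked on simulated data with known changes. Exon lengths came from GENCODE vM21 and promoter windows from RefSeq (GRCm38.p6). Python 3.11.15 with pandas 2.3.3 and numpy 2.4.6 was used for the rest.

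The values of every mouse are given for the 6 members with the smallest p in each of the 6 comparisons, the 3 with the highest and lowest mean in Mrps12+/+ mice of each tissue, and Ifit3 with Ifit3b. The 38 members, their 8 role groups and the other lists were chosen with earlier results of these data known. The limma p-values set each difference against a spread between mice that the 3 genotypes of a tissue share and that was moderated across genes. Whether the same replicate number marked paired mice could not be settled with 3 mice per group, and the main fit did not pair them. Correlations of same-numbered mice lay between -0.23 and 0.58 in heart and between -0.13 and 0.16 in liver. The values of 1 gene of the pathway lists, and of the list named for it, are not reported here.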

Additional observations from a re-analysis of the deposited data

How the results depend on the processing

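The counts of members called and the median log2 fold changes were recomputed with pseudocounts of 0.1 and 8, quantile normalization, no filter, a filter at a mean of 50 (35 members in heart), re-centring, only the 2 genotypes compared, robust eBayes, array weights, a replicate block and each mouse left out, and with limma-voom, chosen after the data were seen. Of these 204 values 196 were classed as unchanged, 7 as moved and 1 as turned in sign. A count was classed as moved if it changed by more than a factor of 1.5, or to or from 0. For a median, a move was a shift of more than the SD of the mouse medians, 0.22 in heart and 0.32 in liver. The Mrps12ep/ep liver median of -0.041 without Mrps12+/+ mouse 1, beside -0.30 in the main fit, was thus classed as unchanged. With array weights 18 members were called in Mrps12ha/ha against Mrps12+/+ hearts, as were 34.7% of all tested genes. In Mrps12ha/ha against Mrps12ep/ep hearts 7 were called, as were 39.3% of tested genes, and the median of this comparison turned to 0.048. With 1 mouse left out, called members numbered 0 to 13 in Mrps12ha/ha against Mrps12+/+ hearts, 0 to 2 in Mrps12ha/ha against Mrps12ep/ep hearts, 0 to 5 in Mrps12ha/ha against Mrps12+/+ livers and 0 to 1 in Mrps12ep/ep against Mrps12+/+ livers, and the median ran from -0.85 to -0.26 in Mrps12ha/ha livers. The cause was not tested. In the other comparisons no member was called with any mouse left out. For the 6 members with the smallest p in each comparison, 593 of 610 values kept their direction and side of the adjusted p threshold, 17 passed the threshold and 0 changed sign. Of all 228 log2 fold changes, 38 members in 6 comparisons, 64 had the other sign under at least 1 alternative, from 2 in Mrps12ep/ep hearts to 20 in Mrps12ep/ep livers, both against Mrps12+/+.

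With the replicate number as a block (replicate block), 0 members were called in all 6 comparisons, and an unadjusted p under 0.05 against Mrps12+/+ was found for 20 in Mrps12ha/ha hearts (19.4% of tested genes), 20 in Mrps12ep/ep hearts (1.96%), 19 in Mrps12ha/ha livers (14.9%) and 10 in Mrps12ep/ep livers (10.4%). Of the 9 mice, 4 in heart and 3 in liver correlated best with their own number. The shallow hearts of Mrps12ha/ha mice 1 and 2 limit the low members, Oas3, Cxcl10 and Mx1.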

Other observations

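Interferon-induced genes outside the 38 include some of antigen presentation and of the Schlafen family, none with an adjusted p under 0.05 from limma. Slfn2 had a log2 difference of 0.58 in Mrps12ha/ha (adjusted p = 0.199) and 0.39 in Mrps12ep/ep hearts, and the immunoproteasome genes Psmb9 and Psmb10 had 0.71 and 0.54 in Mrps12ha/ha hearts (adjusted p = 0.221 and 0.226). The class I gene H2-K1 and its partner B2m had 0.53 and 0.51 in Mrps12ep/ep hearts. In Mrps12ha/ha livers Parp9, a partner of Parp14, had -0.58 (adjusted p = 0.134) and the helicase gene Ddx60 -1.02 (adjusted p = 0.169). These genes were named after their values were seen.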
